A study of Mus musculus with 199 samples.

Results

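Cytochrome P450 enzymes of families 2 and 3 were followed in RNA sequencing of tumours and liver from a mouse model of non-alcoholic steatohepatitis with hepatocellular carcinoma. The members were chosen by name: every gene of the deposited table whose symbol reads Cyp2 or Cyp3, a subfamily letter and a number, leaving out Cyp2e1 and pseudogenes. This gave 54 of 37713 genes, of which 47 belong to family 2 and 7 to family 3. The largest subfamily was Cyp2c with 15 genes, followed by Cyp2d and Cyp2j with 8 each, Cyp3a with 7, Cyp2b with 5 and Cyp2a with 4. Cyp2f, Cyp2g, Cyp2r, Cyp2s, Cyp2t, Cyp2u and Cyp2w had 1 gene each. The choice of genes used no measured value.

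Whole-tissue libraries of 3 kinds were compared: 25 large primary tumours, 25 small primary tumours and 15 samples of liver tissue. All came from male wild-type C57BL/6 mice of an in-house colony. The tumours carry the treatment label DEN ALIOS, the liver carcinogen diethylnitrosamine combined with an American lifestyle-type diet rich in fat and sugar. Liver tissue is DEN ALIOS in its titles, Normal in its treatment label and healthy tissue in the protocol, so whether these livers had received carcinogen and diet is not settled by the labels. Age, tumour size in numbers and the animal of origin are not given in the sources used here. Several libraries may share a mouse, and p-values measure the spread between samples only.

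These enzymes are haem proteins of the endoplasmic reticulum that oxidise drugs, steroids, fatty acids and plant or environmental chemicals, and hepatocytes hold most of the body's supply. They receive electrons from P450 oxidoreductase (Por), with cytochrome b5 as a second donor for some reactions, and each needs a haem group whose synthesis is limited in liver by Alas1. In mouse liver many of these genes are controlled by the nuclear receptors CAR (Nr1i3) and PXR (Nr1i2), which sense foreign chemicals, together with hepatocyte factors such as Hnf4a and Cebpa. Growth hormone, which is released in pulses in males and more evenly in females, makes several of them differ between the sexes through STAT5, Bcl6 and Cux2. Most of the genes sit in tandem arrays of close relatives, a feature that matters for counting short reads.

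Libraries held between 12055434 and 21850190 counts in genes and came from 3 sequencing runs named in the labels. The share of alignments set aside as not unique had a median of 47.8% in large tumours, 49.6% in small tumours and 54.6% in liver tissue. Levels are CPM, counts scaled to library size with TMM factors, so a level is relative to all counted genes. Read pairs of 36 bases cannot always tell close relatives apart, so the share of 36-base windows of each gene's transcripts found in no other gene was computed. It was 31.0% for Cyp2c40, 36.8% for Cyp2c67, 38.01% for Cyp2c69, 43.7% for Cyp2c68, 47.9% for Cyp2a4, 50.3% for Cyp2a5 and 53.99% for Cyp2d10. It was 55.8% for Cyp3a59, 57.9% for Cyp2c37, 58.2% for Cyp3a44, 59.6% for Cyp3a25, 62.9% for Cyp2c54 and 64.2% for Cyp2b13. Levels of these genes are therefore less certain than those of Cyp2c23, Cyp2c70, Cyp2f2, Cyp2r1 and Cyp3a13, where it was 100%.

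Per kilobase of exon, the leading members differed between tumours and liver tissue. In liver tissue Cyp2d26 ranked first with a median level of 498 CPM per kb, followed by Cyp2f2 with 418, Cyp2c70 with 351, Cyp2a4 with 235, Cyp2j5 with 231 and Cyp2c29 with 213 CPM per kb. In large tumours the median levels were 1074 CPM per kb for Cyp2a4 and 568 for Cyp2d26, against 34.1 for Cyp2f2, 24.9 for Cyp2j5 and 6.39 for Cyp2c29. In small tumours they were 1481 CPM per kb for Cyp2a4 and 685 for Cyp2d26, against 55.7 for Cyp2f2, 32.8 for Cyp2j5 and 29.1 for Cyp2c29. Among neighbours in the liver order, Cyp2a4 ranged from 126 to 1204 CPM and Cyp2j5 from 456 to 617 CPM, so their order is within the spread of the libraries.

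Of the 54 genes, 39 had enough counts to be tested. In large tumours 28 fell and 6 rose against liver tissue, and 5 did not pass the test, by edgeR's quasi-likelihood test with Benjamini-Hochberg adjustment at 0.05 over all genes tested. The background was high: of 14538 genes, 32.1% were lower and 38.5% higher in large tumours, 70.5% in either direction. Of the 28 members that fell, 23 fell by more than 2-fold and 16 by more than 4-fold. The median log2 fold change of the 39 members was -1.497, against 0.05 over all genes tested. In small tumours 28 members fell, 7 rose and 4 did not pass the test, where 31.0% of all genes were lower and 34.7% higher, 65.7% in either direction. The median over members was -1.29 in that comparison, against 0.03 over all genes. Both comparisons share the liver tissue libraries.

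The direction of the falls was the same in every run. All 28 members that fell in large tumours had a negative fold change within each of the 3 runs alone, and 26, 27 and 20 of them passed the test in runs 1, 2 and 3. All 28 that fell in small tumours were likewise negative in each run, with 24, 25 and 17 passing. Of the 6 that rose in large tumours 2, 4 and 2 passed in runs 1, 2 and 3. Of the 7 that rose in small tumours 6, 3 and 2 passed. All of these were positive in each run other than Cyp3a57, which had no value in run 1. Run 3 held 3 liver tissue libraries. In bulk tissue, fewer cells of a type and less RNA per cell cannot be told apart.

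**Figure D1:**
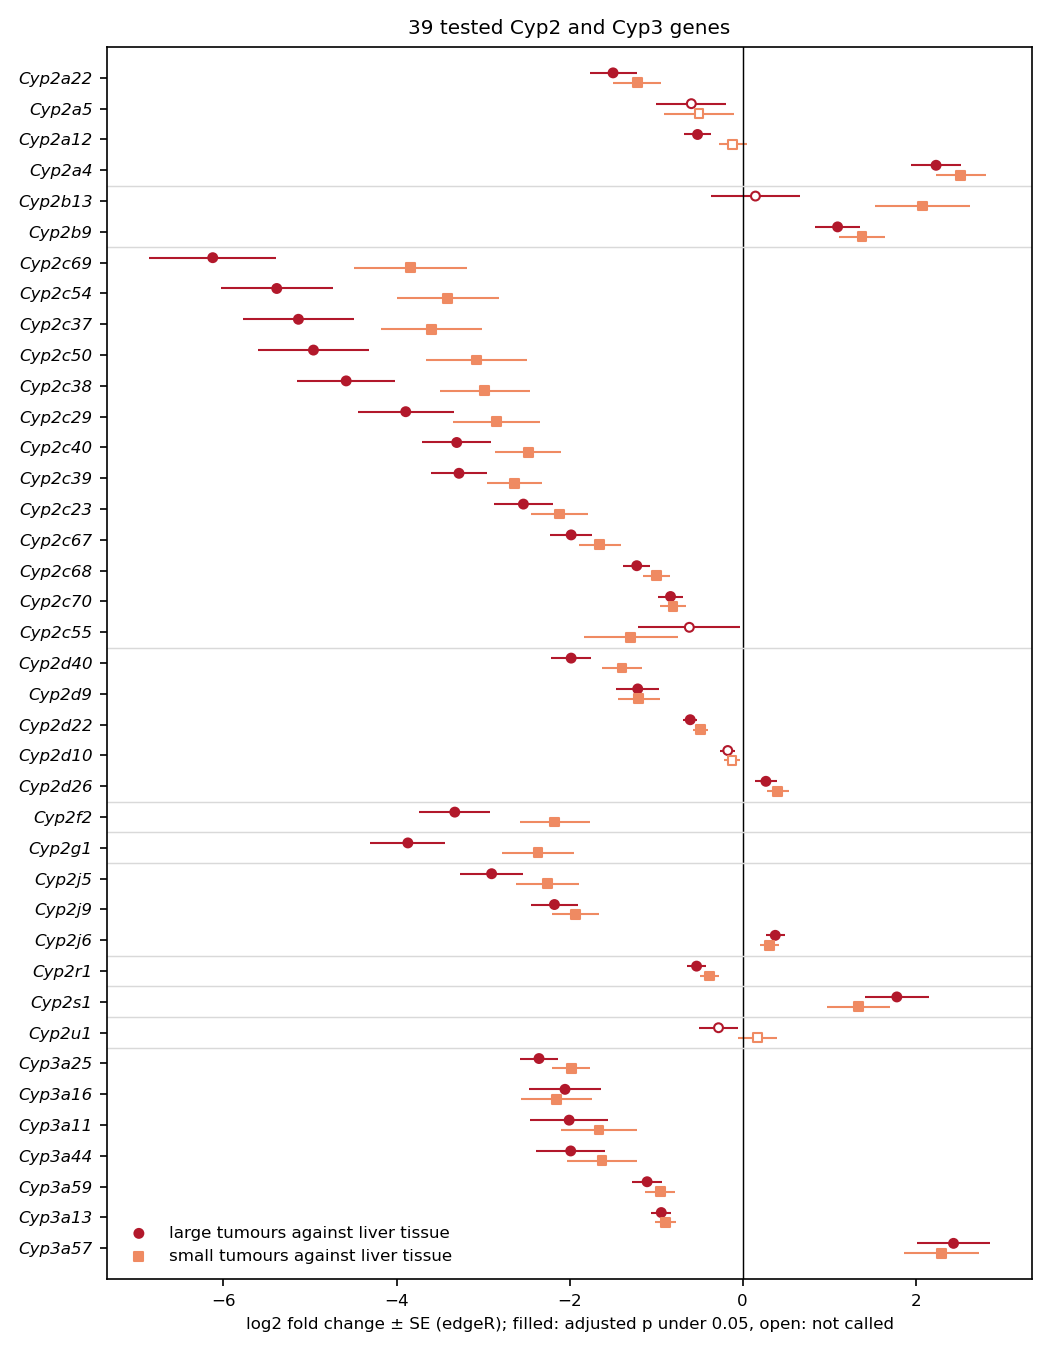
Log2 fold changes (x axis) of the 39 tested genes (y axis, grouped by subfamily) in large tumours (circles) and small tumours (squares) against liver tissue, with bars of 1 standard error; filled symbols passed the test at an adjusted p of 0.05 and open symbols did not. The 13 tested Cyp2c genes all lie left of 0, and Cyp2a4, Cyp2b9, Cyp2s1 and Cyp3a57 lie right of 0 in both tumour groups.

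The Cyp2c subfamily, whose enzymes oxidise arachidonic acid, steroids and many drugs, fell in nearly every tested gene. Of its 15 genes 13 were tested, and 12 fell in large tumours and 13 in small tumours. Over all genes tested 32.1% were lower in large and 31.0% in small tumours. The median log2 fold change over the 13 was -3.30 in large tumours and -2.63 in small tumours. Cyp2c29, in mouse an abundant hepatic enzyme inducible through CAR, had 2.31, 19.6 and 553 CPM as the lowest, median and highest value in large tumours. It had 8.29, 89.1 and 521 CPM in small tumours, against 473, 652 and 785 CPM in liver tissue. Only 1 large and 1 small tumour reached the range of liver tissue. The fitted fold change was -3.89 ± 0.56 (SE) in large tumours (adjusted p = 8.9e-09) and -2.85 ± 0.51 in small tumours (adjusted p = 1.7e-06).

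Cyp2c37, Cyp2c50 and Cyp2c54, neighbouring genes whose enzymes act on arachidonic acid, had larger fitted falls than Cyp2c29. Cyp2c37 had 0.36, 2.59 and 255 CPM as lowest, median and highest value in large tumours and 0.49, 24.0 and 156 CPM in small tumours, against 101, 259 and 476 CPM in liver tissue. Cyp2c50 had 0.22, 3.20 and 191 CPM in large tumours and 1.18, 38.6 and 175 CPM in small tumours, against 191, 319 and 459 CPM in liver tissue. For Cyp2c50 all 50 tumours lay below every liver tissue library. The same was true of Cyp2c54, at medians of 0.60 CPM in large and 12.9 CPM in small tumours against 128 CPM in liver tissue, and of Cyp2c38, at 1.70 and 17.6 CPM against 133 CPM. The fitted fall in large tumours was 35.1-fold for Cyp2c37, 31.1-fold for Cyp2c50, 41.8-fold for Cyp2c54 and 23.9-fold for Cyp2c38. In small tumours these falls were 12.1-fold, 8.41-fold, 10.6-fold and 7.88-fold in the same order of genes.

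The promoters of Cyp2c37 and Cyp2c50 are shown with that of Cyp3a11 because all 3 genes fell and share a short motif. Sequences are RefSeq promoters on GRCm38.p6, from 250 bases before to 50 bases after the start, and capitals mark a match to CAAAGTNCA, a form of the direct repeat bound by Hnf4a. Cyp2c37 is at chr19:39992174-39992473 on the plus strand, Cyp2c50 at chr19:40089429-40089728 on the plus strand and Cyp3a11 at chr5:145879805-145880104 on the minus strand.
Cyp2c37: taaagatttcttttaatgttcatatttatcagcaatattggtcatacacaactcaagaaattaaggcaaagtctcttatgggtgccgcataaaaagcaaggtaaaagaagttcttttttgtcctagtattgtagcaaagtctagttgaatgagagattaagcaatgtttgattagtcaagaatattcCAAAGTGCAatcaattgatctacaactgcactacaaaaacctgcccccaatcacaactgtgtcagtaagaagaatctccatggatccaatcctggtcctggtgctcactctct
Cyp2c50: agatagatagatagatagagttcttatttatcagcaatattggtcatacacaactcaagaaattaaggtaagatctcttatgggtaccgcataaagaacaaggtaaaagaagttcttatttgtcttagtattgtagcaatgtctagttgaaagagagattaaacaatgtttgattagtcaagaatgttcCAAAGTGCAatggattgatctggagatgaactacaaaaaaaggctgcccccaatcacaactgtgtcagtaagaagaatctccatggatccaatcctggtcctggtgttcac
Cyp3a11: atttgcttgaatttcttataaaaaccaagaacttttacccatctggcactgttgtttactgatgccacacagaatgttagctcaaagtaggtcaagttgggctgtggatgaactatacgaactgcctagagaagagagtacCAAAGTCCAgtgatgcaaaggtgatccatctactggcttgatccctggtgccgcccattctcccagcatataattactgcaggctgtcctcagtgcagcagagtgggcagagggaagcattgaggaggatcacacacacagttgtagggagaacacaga
The matched letters were CAAAGTGCA in both Cyp2c promoters, beginning 63 bases before the start of Cyp2c37 and 61 bases before that of Cyp2c50, and CAAAGTCCA in Cyp3a11, beginning 109 bases before its start.

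Promoters were found for 46 of the 54 members. The motif CAAAGTNCA, searched on both strands, was present in 12 of them and in 1.41% of 32851 promoters. Of those 12 genes Cyp2d26 rose in large tumours, Cyp2c65 was not tested and 10 fell. Of all 46 genes with a promoter 24 fell, 6 rose, 4 did not pass the test and 12 were not tested. The 10 were Cyp2c37, Cyp2c40, Cyp2c50, Cyp2c67, Cyp2c68, Cyp2c69, Cyp2c70, Cyp3a11, Cyp3a16 and Cyp3a44. TATAAA was present in 23 members and 13.62% of all promoters, AGGTCA in 18 members and 16.26%, and TTGCNNAA in 14 members and 10.8%. GTTAAT was present in 6 members and 7.1% of all promoters, TTATGNAA in 5 and 3.38%, and TTCNNNGAA in 2 and 8.3%. A member counted once if any of its promoters matched, with 49 promoters for the 46 genes, while the percentages are of single promoters. Overlapping matches of different motifs were each counted, and the motifs were chosen with values of these genes known. A match says only that these letters occur in this window, and the members are related genes whose promoters share ancestry.

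Cyp2c69 had the largest fitted fall of all members. It had 0, 0.74 and 122 CPM as lowest, median and highest value in large tumours and 0.42, 13.5 and 173 CPM in small tumours, against 26.7, 211 and 486 CPM in liver tissue. The fold change was -6.12 ± 0.73 in large tumours (adjusted p = 6.2e-11) and -3.84 ± 0.65 in small tumours (adjusted p = 6.1e-07). The liver tissue libraries themselves spread widely, with replicates 1 to 3 at 26.7 to 34.9 CPM and the other 12 between 96.0 and 486 CPM. Only 38.01% of its windows are unique, and 54.2% are shared with Cyp2c40, which also fell, with a median of 3.32 CPM in large tumours and 8.38 CPM in small tumours against 55.8 CPM in liver tissue.

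Other Cyp2c genes fell less. Cyp2c23, which in mouse forms epoxides of arachidonic acid in kidney and liver and lies away from the main array, had a median of 42.9 CPM in large tumours and 58.2 CPM in small tumours, against 363 CPM in liver tissue. Cyp2c67 and Cyp2c68 fell by 3.95-fold and 2.34-fold in large tumours. Cyp2c70, which in mouse makes the 6-hydroxylated muricholic bile acids, had a median of 390 CPM in large and 381 CPM in small tumours against 696 CPM in liver tissue, a fold change of -0.83 ± 0.14 in large tumours (adjusted p = 8.2e-07). It overlapped the liver tissue range in 9 of 25 large tumours. Cyp2c39 fell at a low level, with 0.44 CPM in large and 0.89 CPM in small tumours against 4.58 CPM in liver tissue. Cyp2c55 fell in small tumours, with a fold change of -1.29 ± 0.54 (adjusted p = 0.033), a call that ended under 9 of the 14 alternatives tried. In large tumours its change was -0.62 ± 0.59 (adjusted p = 0.35), and large tumour replicate 20 held 33.4 CPM where the next large tumour had 9.26 CPM. Without that library the change was -1.26 (adjusted p = 0.0099), and 6 alternatives in all gave a call as lower, while without run 2 the change was 0.44.

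**Figure D2:**
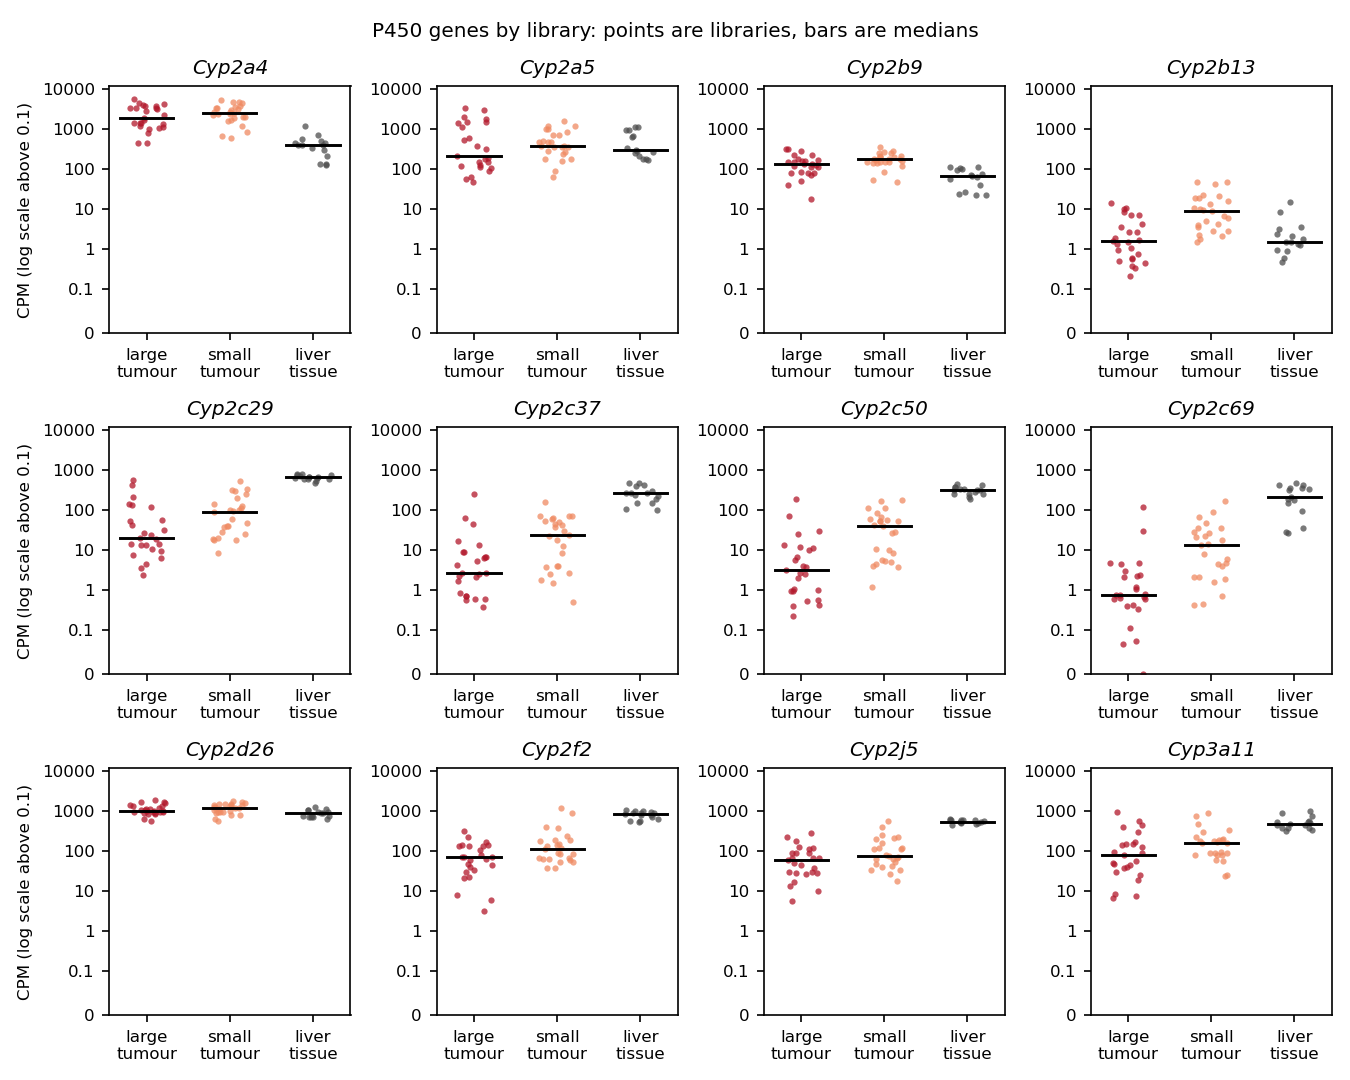
Levels in CPM (y axis, logarithmic above 0.1 CPM) of 12 genes in each library, with large tumours, small tumours and liver tissue from left to right; points are libraries and bars are group medians. Cyp2a4 lies higher in tumours, with medians of 1867 and 2574 CPM against 409 CPM, while Cyp2c37 ranges from 0.364 to 255 CPM among large tumours against 101 to 476 CPM in liver tissue.

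The Cyp3a subfamily in mouse holds the main steroid and drug hydroxylases and responds to PXR. Against 32.1% and 31.0% of all genes lower in large and small tumours, 6 of its 7 genes fell in both groups. Cyp3a11, the most studied of them, had 6.56, 78.6 and 956 CPM as lowest, median and highest value in large tumours and 24.0, 161 and 915 CPM in small tumours, against 311, 465 and 1025 CPM in liver tissue. In each tumour group 4 of 25 tumours lay within the liver range. Its fold change was -2.005 ± 0.45 in large tumours (adjusted p = 8.3e-05) and -1.66 ± 0.44 in small tumours (adjusted p = 0.00081), and within single runs it passed in large tumours in runs 1 and 2, not in run 3 (adjusted p = 0.40), and in small tumours in no run (adjusted p = 0.063, 0.069 and 0.32). Cyp3a25 was the more uniform, with 53.1 CPM in large and 77.2 CPM in small tumours against 217 CPM in liver tissue, and a fold change of -2.35 ± 0.22 in large tumours (adjusted p = 2.9e-14). Of all Cyp3a25 windows 36.4% are shared with Cyp3a59, so its level is less certain. Cyp3a13, the single gene outside the array, fell by 0.94 ± 0.12 on the log2 scale in large tumours and by 0.89 ± 0.12 in small tumours. Cyp3a16 and Cyp3a44 fell at levels of a few CPM, and Cyp3a59 had 6.30 CPM in large and 7.69 CPM in small tumours against 11.7 CPM.

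Single genes of other subfamilies also fell. Cyp2f2, an enzyme of hepatocytes near the portal vein that activates naphthalene, had 3.18, 69.0 and 308 CPM as lowest, median and highest value in large tumours and 37.2, 113 and 1193 CPM in small tumours, against 527, 847 and 1086 CPM in liver tissue. No large tumour reached the liver range, and among small tumours 1 lay within it and 1 above it. The fold change was -3.33 ± 0.41 in large tumours (adjusted p = 1.3e-10) and -2.17 ± 0.41 in small tumours (adjusted p = 4.8e-06). Cyp2j5, an epoxygenase of liver and kidney, had 5.57, 58.4 and 274 CPM in large tumours and 17.7, 76.9 and 559 CPM in small tumours, against 456, 542 and 617 CPM in liver tissue. All 25 large tumours and 24 of 25 small tumours lay below the liver range. Its relative Cyp2j9 fell by 2.17 ± 0.27 on the log2 scale in large tumours. Cyp2g1, best known from olfactory mucosa, fell at a median of 0.16 CPM in large and 0.76 CPM in small tumours against 3.53 CPM in liver tissue.

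Of 5 tested Cyp2d genes, relatives of the human debrisoquine hydroxylase, 3 fell and 1 rose in each tumour group. Over all genes tested 32.1% were lower and 38.5% higher in large tumours, and 31.0% and 34.7% in small tumours. Cyp2d26 had 568, 1018 and 1948 CPM as lowest, median and highest value in large tumours and 568, 1227 and 1749 CPM in small tumours, against 650, 893 and 1252 CPM in liver tissue. The groups overlapped widely, and the rise of 0.27 ± 0.12 on the log2 scale in large tumours (adjusted p = 0.049) ended under 11 of 14 alternatives, RLE scaling (adjusted p = 0.075) and DESeq2 (adjusted p = 0.082) among them. In small tumours the rise was 0.41 ± 0.13 (adjusted p = 0.0035), and it ended under 4 of 14 alternatives: without run 1 (adjusted p = 0.31), within run 2 alone (0.57), within run 3 alone (0.35) and with a 1.5-fold minimum. Cyp2d10 had a median of 315 CPM in large and 341 CPM in small tumours against 347 CPM in liver tissue and did not pass the test in either. Cyp2d9, which in mouse liver is higher in males, fell by 1.21 ± 0.25 in large tumours and by 1.20 ± 0.24 in small tumours. Cyp2d40 fell by 1.98 ± 0.23 and Cyp2d22 by 0.61 ± 0.08 in large tumours. Cyp2r1, a vitamin D 25-hydroxylase, fell by 0.53 ± 0.11 in large tumours, and Cyp2u1 did not pass the test.

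Cyp2a4, in contrast, rose to be the most abundant member in tumours. Its enzyme is a testosterone 15-alpha-hydroxylase that is higher in female than in male mouse liver. It had 451, 1867 and 5567 CPM as lowest, median and highest value in large tumours and 597, 2574 and 5441 CPM in small tumours, against 126, 409 and 1204 CPM in liver tissue. Above every liver tissue library lay 19 of 25 large and 21 of 25 small tumours, and none lay below the liver range. The fold change was 2.24 ± 0.29 in large tumours (adjusted p = 6.0e-10) and 2.52 ± 0.29 in small tumours (adjusted p = 3.1e-11). Within runs 1, 2 and 3 it was 1.57, 2.23 and 2.65 in large tumours and 2.62, 2.28 and 2.66 in small tumours, and all 6 passed the test.

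Cyp2a5, the coumarin 7-hydroxylase, is almost the same gene in sequence and did not pass the test. It had 47.4, 214 and 3331 CPM as lowest, median and highest value in large tumours and 64.1, 380 and 1552 CPM in small tumours, against 168, 293 and 1149 CPM in liver tissue. Large tumours spread beyond liver tissue on both sides, with 10 below, 8 within and 7 above its range. The fold change was -0.59 ± 0.40 in large tumours (adjusted p = 0.19) and -0.50 ± 0.41 in small tumours (adjusted p = 0.28). In large tumours it passed as lower under 5 alternatives: without run 1 (adjusted p = 0.045), without run 3 (0.0048), within run 2 alone (0.00095), with a replicate block (0.0032) and leaving out libraries with S100a8 above 10 CPM (0.043). The fit with the replicate block held no tumour of run 3 and no run term. The Cyp2a5 change was positive, and did not pass, without run 2 (0.81), with no run term (0.57) and within run 3 alone (1.08). Levels differed by run: the medians in runs 1, 2 and 3 were 152, 137 and 1488 CPM in large tumours and 350, 180 and 791 CPM in small tumours, against 243, 608 and 685 CPM in liver tissue. Liver tissue values split by replicate number within run 2, as given under other observations. The median of that run lies between the separate ranges. Of all Cyp2a4 windows 50.03% are shared with Cyp2a5, so reads counted for either come from the part of the transcripts where they differ.

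The ratio of Cyp2a4 to Cyp2a5 within a library, a pair chosen after these values were seen, had a median of 7.47 in large tumours (range 0.259 to 34.3) and 5.53 in small tumours (2.075 to 25.0), against 0.758 in liver tissue (0.288 to 2.32). It was below 1 in 1 large tumour, in 0 small tumours and in 9 of 15 liver tissue libraries. The mean log2 ratio was higher by 2.70 in large tumours and by 2.72 in small tumours than in liver tissue, given without a test because the pair was chosen for its values. Within runs 1, 2 and 3 the difference was 2.26, 4.36 and 1.76 for large and 1.91, 4.17 and 2.68 for small tumours. Large and small tumours differed by -0.02.

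The promoters of this pair are printed because Cyp2a4 rose and Cyp2a5 did not pass the test, while their start regions hardly differ. Over 299 aligned bases they differ at 5, marked by capitals, an identity of 98.3%. Both are RefSeq promoters on GRCm38.p6 on the plus strand, Cyp2a4 at chr7:26306942-26307241 and Cyp2a5 at chr7:26835089-26835388.
Cyp2a4: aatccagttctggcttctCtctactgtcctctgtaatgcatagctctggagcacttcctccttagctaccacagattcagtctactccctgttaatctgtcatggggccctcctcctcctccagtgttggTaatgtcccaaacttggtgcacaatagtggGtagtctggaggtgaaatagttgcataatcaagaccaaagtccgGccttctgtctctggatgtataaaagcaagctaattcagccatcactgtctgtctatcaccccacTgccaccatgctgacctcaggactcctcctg
Cyp2a5: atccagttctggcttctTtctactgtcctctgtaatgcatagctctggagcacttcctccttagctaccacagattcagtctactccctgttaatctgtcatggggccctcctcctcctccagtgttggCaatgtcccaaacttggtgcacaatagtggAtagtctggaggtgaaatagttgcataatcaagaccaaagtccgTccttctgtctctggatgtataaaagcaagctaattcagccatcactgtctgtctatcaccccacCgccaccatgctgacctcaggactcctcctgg
Both hold a match to every motif searched other than the Hnf4a form CAAAGTNCA and the STAT form, to which neither has a match. Nothing outside this window was compared.

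The Cyp2b genes, textbook targets of CAR, were at low to moderate levels. Cyp2b9, higher in females in mouse liver, had 17.5, 131 and 317 CPM as lowest, median and highest value in large tumours and 47.4, 175 and 352 CPM in small tumours, against 22.5, 65.4 and 111 CPM in liver tissue. It rose by 1.098 ± 0.26 on the log2 scale in large tumours (adjusted p = 0.00020) and by 1.38 ± 0.27 in small tumours (adjusted p = 7.8e-06), with 17 large and 22 small tumours above every liver tissue library. Within runs 1, 2 and 3 edgeR's adjusted p in large tumours was 0.11, 0.0063 and 0.18. In small tumours it was 0.019, 0.017 and 0.052. Cyp2b13, another gene with higher levels in females, had a median of 1.54 CPM in large tumours and 9.09 CPM in small tumours, against 1.51 CPM in liver tissue. It rose in small tumours by 2.08 ± 0.55 (adjusted p = 0.00081), while the change in large tumours was 0.15 ± 0.51 (adjusted p = 0.81). The rise in small tumours passed within run 1 (adjusted p = 0.012), not within run 2 (0.42) or run 3 (0.062). Cyp2b10, the usual reporter of CAR activity, was not tested. It had 0, 0.0481 and 0.555 CPM as lowest, median and highest value in large tumours and 0, 0.0655 and 0.708 CPM in small tumours, against 0.0594, 0.181 and 0.371 CPM in liver tissue.

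The other rises were small or at low levels. Cyp2s1, an enzyme of epithelia outside the liver, had a median of 1.52 CPM in large and 0.78 CPM in small tumours against 0.53 CPM in liver tissue, and rose by 1.78 ± 0.37 in large tumours (adjusted p = 2.2e-05). Cyp3a57 rose by 2.44 ± 0.42 in large tumours, though no library of any group had more than 2.20 CPM. Cyp2j6 rose by 0.38 ± 0.11 in large tumours, at 89.9 CPM in large and 90.9 CPM in small tumours against 76.3 CPM in liver tissue. Cyp2a12 and Cyp2a22, the remaining Cyp2a genes, had 266 and 3.25 CPM in large tumours, 364 and 4.28 CPM in small tumours, and 329 and 9.49 CPM in liver tissue. Both fell in large tumours, by 0.52 ± 0.16 and 1.497 ± 0.27 on the log2 scale.

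Genes next to each other did not always move alike. On chromosome 7 (GRCm38), 13 members lie between positions 25802475 and 27158668. In chromosomal order, the first 5, Cyp2s1, Cyp2b10, Cyp2b13, Cyp2b9 and Cyp2a4, held every rise of that array, with Cyp2b10 not tested, and the 5 tested genes after them, Cyp2g1, Cyp2a5, Cyp2a22, Cyp2a12 and Cyp2f2, all had negative fold changes in both tumour groups. On chromosome 19, 14 Cyp2c genes lie between 39007019 and 40187333, and the deepest falls, Cyp2c69, Cyp2c37, Cyp2c54 and Cyp2c50, were 4 consecutive genes at its far end, followed by Cyp2c70 with a much smaller fall. On chromosome 5, between 145345279 and 146113287, Cyp3a57 rose and the 5 Cyp3a genes after it fell. In the Cyp2d array of 8 genes on chromosome 15, from 82370527 to 82794294, Cyp2d40 fell and its neighbour Cyp2d26 rose. In the Cyp2j array of 8 genes on chromosome 4, from 96027534 to 96664154, Cyp2j6 rose and the next genes, Cyp2j9 and Cyp2j5, fell. These orders describe the arrays and were not tested.

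**Figure D3:**
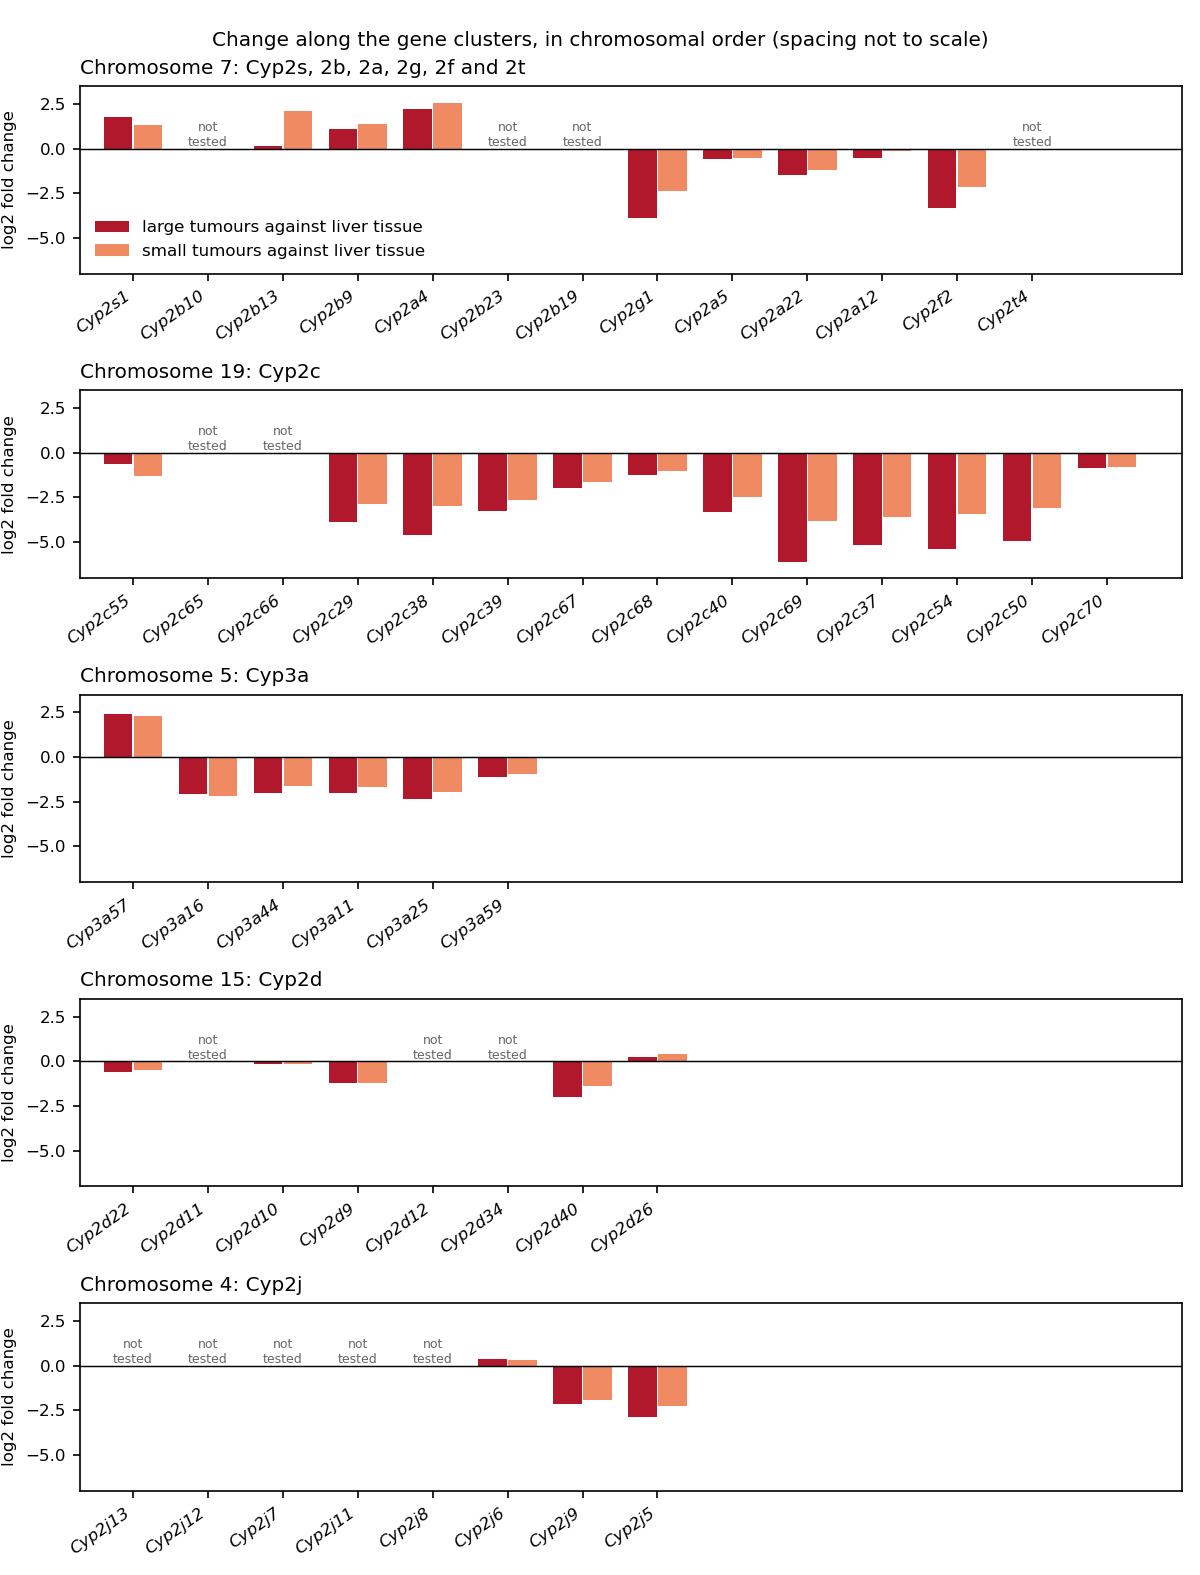
Log2 fold change (y axis) of each gene in chromosomal order (x axis, spacing not to scale) in large tumours (dark bars) and small tumours (light bars) against liver tissue, for 5 gene arrays; genes marked as not tested had too few counts. On chromosome 7 rises lie on the left and negative changes on the right.

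With runs pooled, the makeup of the P450 counts shifted more than their sum. All 54 members together had a median of 5859 CPM in large tumours (2993 to 13245) and 7140 CPM in small tumours (3588 to 11831). In liver tissue the median was 8280 CPM (6500 to 12180), so the pooled groups overlapped. Without Cyp2a4 the medians were 3675, 4758 and 7883 CPM in the same order of groups. The sum of all 54 differed by run. In large tumours it ranged from 3799 to 4835 CPM in run 1, 2993 to 8788 CPM in run 2 and 5859 to 13245 CPM in run 3. In small tumours these ranges were 4027 to 9576, 3588 to 6814 and 5971 to 11831 CPM. Cyp2a4 made up a median of 35.7% of member counts in large tumours (5.41% to 45.9%) and 38.1% in small tumours (7.69% to 49.1%), against 4.74% in liver tissue (1.69% to 9.89%). The Cyp2c sum had a median of 579 CPM in large and 779 CPM in small tumours against 3054 CPM in liver tissue. The Cyp3a sum had 309 and 369 CPM against 1153 CPM, and the Cyp2j sum 171 and 187 CPM against 627 CPM. The Cyp2d sum was 1611 and 1928 CPM against 1801 CPM.

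**Figure D4:**
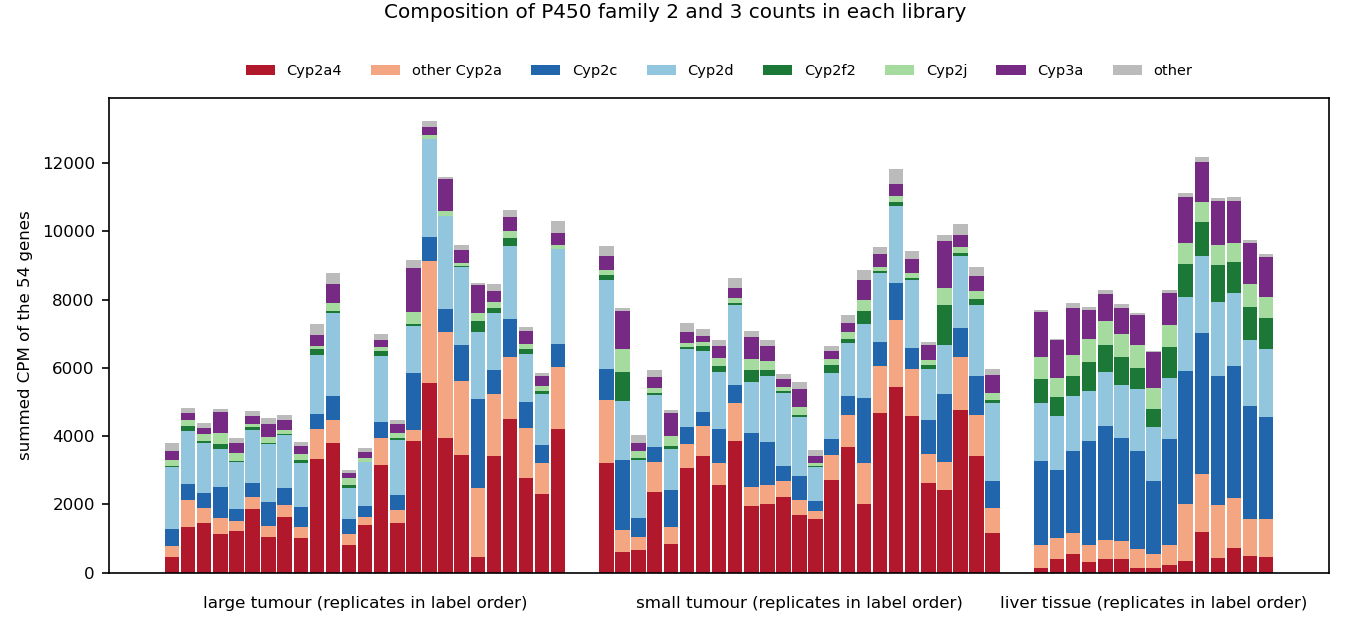
Summed CPM of the 54 genes (y axis) in each library (x axis, replicates in label order within large tumours, small tumours and liver tissue), stacked by gene group. The Cyp2a4 part fills a median of 35.7% of the bar in large and 38.1% in small tumours against 4.74% in liver tissue, and the Cyp2c part is largest in liver tissue.

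Between large and small tumours 5 members differed, all lower in large tumours: Cyp2c69 by -2.28 ± 0.62 on the log2 scale (adjusted p = 0.032), Cyp2c54 by -1.98 ± 0.55 (adjusted p = 0.039), Cyp2b13 by -1.93 ± 0.44 (adjusted p = 0.012), Cyp2c50 by -1.89 ± 0.54 (adjusted p = 0.043) and Cyp2g1 by -1.503 ± 0.42 (adjusted p = 0.038). The background here was 1.55% of genes lower and 0.929% higher, 2.48% in either direction. No member was higher in large tumours by edgeR or by DESeq2, and 15 members had an unadjusted p under 0.05 in either direction. The median log2 fold change of members was -0.33, against 0.01 over all genes. All 5 were lower in large tumours within each run, and none passed the test within a run alone. Without run 1 there were 0 calls and without run 2 there was 1. Without run 3 there were 7, Cyp2c29, Cyp2c37, Cyp2c38, Cyp2c39, Cyp2c50, Cyp2c54 and Cyp2c69. Without large tumour replicate 20 there were 10 calls, the 5 above with Cyp2c37, Cyp2c38, Cyp2c39, Cyp2d40 and Cyp2f2.

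Tumours differed widely in how far they had lost these genes. Of the 28 members that fell in large tumours, a large tumour had between 0 and 17 at or above the lowest liver tissue library, with a median of 4. A small tumour had between 1 and 18, with a median of 5. At most 3 were kept at that level in 12 of 25 large and 4 of 25 small tumours, and 14 or more in 1 large and 4 small tumours. In runs 1, 2 and 3 large tumours kept 1 to 6, 0 to 6 and 3 to 17, and small tumours 1 to 18, 1 to 6 and 4 to 16. Run 2 held 10 large and 5 small tumours, so run and tumour size are partly mixed here. These counts use the fall against liver tissue that chose the 28 genes and are given as a description. The large tumour with 17 was replicate 20, which held the highest large-tumour value of 17 of the 39 tested members. It had 255 CPM of Cyp2c37 where the next large tumour had 62.2 CPM, 122 CPM of Cyp2c69 where the next had 29.3 CPM. In the same library Cyp2e1 reached 11261 CPM, the next large tumour having 4082 CPM, and Cyp1a2 1180 CPM against a highest value of 330 CPM in liver tissue. Without it 29 members fell in large tumours and 6 rose.

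Genes that control or serve these enzymes were read from 3 lists. Of 28 transcription factors and receptors with known roles at P450 genes, 19 fell and 2 rose in large tumours, and 19 fell and 3 rose in small tumours. Over all genes 32.1% were lower and 38.5% higher in large tumours, and 31.0% lower and 34.7% higher in small tumours. The list had a median log2 fold change of -0.47 in large and -0.38 in small tumours, against 0.05 and 0.03 over all genes. Nr1i3, encoding CAR, had 5.77, 33.7 and 427 CPM as lowest, median and highest value in large tumours and 5.99, 69.6 and 173 CPM in small tumours, against 150, 238 and 638 CPM in liver tissue. It fell by 3.33 ± 0.37 on the log2 scale in large tumours (adjusted p = 4.8e-12). Nr1i2, encoding PXR, fell by 1.04 ± 0.09 and its partner Rxra by 0.78 ± 0.07. Hnf4a did not pass the test, with a median of 684 CPM in large and 699 CPM in small tumours against 701 CPM in liver tissue. Cebpa fell by 0.87 ± 0.08, Ahr, the dioxin receptor, by 0.91 ± 0.16, Nr1h4, the bile acid receptor FXR, by 1.43 ± 0.12, and Onecut1, a hepatocyte factor, by 1.43 ± 0.15 in large tumours.

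The same list holds genes of growth hormone signalling, which differed in the size of their change. Stat5a and Stat5b, which carry the signal to the nucleus, fell by 0.43 ± 0.07 and 0.30 ± 0.06 in large tumours. Ghr, the growth hormone receptor, had 54.5, 86.8 and 245 CPM as lowest, median and highest value in large tumours and 81.0, 123 and 341 CPM in small tumours, against 321, 435 and 518 CPM in liver tissue. It fell by 2.13 ± 0.16 in large and by 1.59 ± 0.16 in small tumours. Cux2, a repressor that is higher in female liver, fell by 2.98 ± 0.53 in large tumours, with liver tissue itself spread from 2.68 to 88.3 CPM. Bcl6, a repressor that is higher in male liver, rose by 0.57 ± 0.17 in the fit with run as a term, at medians of 15.7 CPM in large and 14.9 CPM in small tumours against 16.3 CPM in liver tissue, and its change was -0.50 within run 1 alone. Foxa3 rose by 1.03 ± 0.09 in large tumours. Ghr and Hlf, a circadian regulator, were also lower in large than in small tumours, by -0.54 ± 0.15 (adjusted p = 0.033) and -0.39 ± 0.11 (adjusted p = 0.042). The Ghr call ended under 9 and the Hlf call under 11 of 14 alternatives, leaving out any 1 of the runs among them.

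Of 15 genes of electron supply and haem metabolism, 12 fell in each tumour group, where 32.1% of all genes were lower in large and 31.0% in small tumours. The 12 include Hmox1, which degrades haem and fell by 0.81 ± 0.14 in large tumours. Cyb5r3 rose in large tumours by 0.18 ± 0.07, a call that ended under 12 of 14 alternatives. Por had 89.2, 159 and 898 CPM as lowest, median and highest value in large tumours and 81.7, 239 and 600 CPM in small tumours, against 270, 445 and 1308 CPM in liver tissue. It fell by 1.89 ± 0.18 in large tumours (adjusted p = 4.1e-14). Alas1, the rate-limiting enzyme of haem synthesis, had 63.8, 161 and 728 CPM in large tumours and 76.3, 270 and 1021 CPM in small tumours, against 462, 970 and 1802 CPM in liver tissue. It fell by 2.84 ± 0.22 in large tumours and fell by 2.099 ± 0.22 in small tumours. Cpox, a later step of haem synthesis, fell by 1.5003 ± 0.15 and Cyb5a, encoding cytochrome b5, by 0.98 ± 0.11 in large tumours, while Fech and Ppox, the last steps, did not pass the test.

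Of 13 other genes of foreign compound metabolism, which include epoxide hydrolases and cytosolic aldehyde oxidases, 9 fell and 2 rose in each tumour group, against the same shares of all genes. Cyp2e1, the ethanol-metabolising relative left out of the 54, had 9.59, 176 and 11261 CPM as lowest, median and highest value in large tumours and 40.1, 1071 and 4224 CPM in small tumours, against 4937, 7439 and 13012 CPM in liver tissue. Cyp1a2, which metabolises caffeine, fell by 2.13 ± 0.55 in large and 2.23 ± 0.50 in small tumours. Aox3, an aldehyde oxidase, fell by 2.62 ± 0.35 in large tumours. Fmo4 rose by 1.16 ± 0.12, at 28.4 CPM in large and 27.5 CPM in small tumours against 14.1 CPM in liver tissue. Cyp1a1, the classic Ahr target, rose by 1.29 ± 0.50 at a median of 1.26 CPM, and its change was -0.0096 within run 1 alone.

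**Figure D5:**
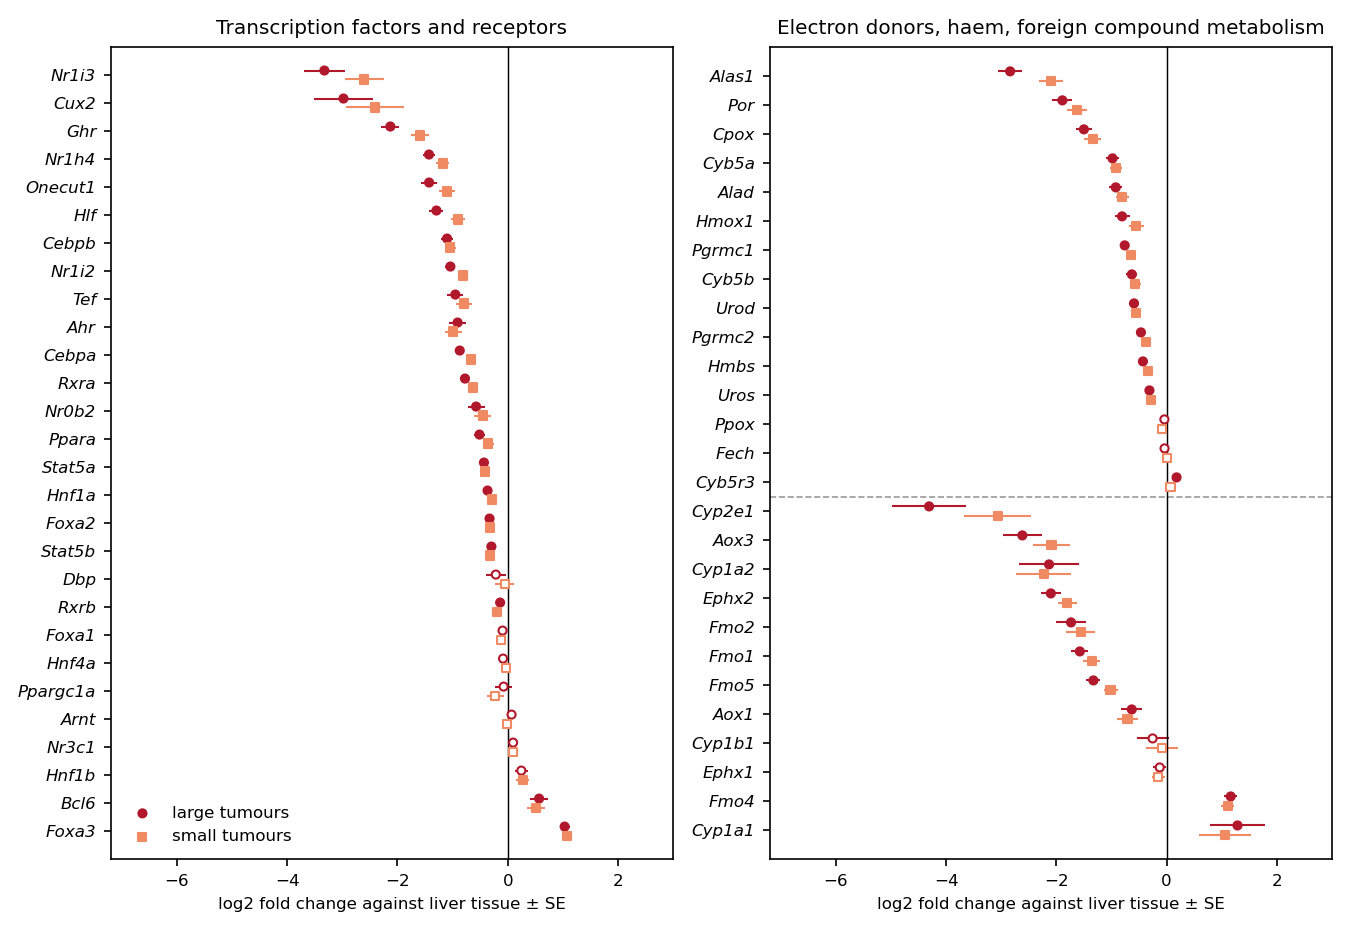
Log2 fold change against liver tissue (x axis, with bars of 1 standard error) of transcription factors and receptors (left) and of electron donors, haem metabolism and other foreign compound metabolism (right, the last group below the dashed line) in large tumours (circles) and small tumours (squares); filled symbols passed the test and open symbols did not. Nr1i3, Cux2 and Ghr lie farthest left among regulators, and Alas1, Por and Cpox among electron and haem genes.

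Members were also grouped by known control. Of 7 members that are higher in female than in male mouse liver, Cyp2a4 and Cyp2b9 rose in large tumours and Cyp2c40, Cyp2c69, Cyp3a16 and Cyp3a44 fell, while Cyp2b13 did not pass the test. In small tumours Cyp2b13 rose as well, and the same 4 genes fell. Their median log2 fold change was -1.99 in large and -1.62 in small tumours, against 0.05 and 0.03 over all genes tested. Of all genes tested 38.5% were higher and 32.1% lower in large tumours, and 34.7% and 31.0% in small tumours. Of 7 members inducible through CAR or PXR, 6 were tested: 5 fell in large tumours and 6 in small tumours, with a median of -4.43 and -2.96. The 7 were Cyp2b10, which was not tested, Cyp2c29, Cyp2c37, Cyp2c50, Cyp2c54, Cyp2c55 and Cyp3a11, so most are Cyp2c genes. Cyp2b9 and Cyp2b13, also of the Cyp2b subfamily, were counted in the female-predominant list and not in this one. Cyp2b9 rose in both tumour groups and Cyp2b13 in small tumours, so the inducible list leaves out Cyp2b genes that rose. Of all 39 members tested 28 fell in each tumour group, with a median over members of -1.497 in large and -1.29 in small tumours. Both lists were drawn up with results of these samples known.

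Marker counts of cell types are read against the 38.5% of all genes higher and 32.1% lower in large tumours, and 34.7% and 31.0% in small tumours. Of 10 hepatocyte markers 6 rose and 3 fell in large tumours, and their sum had a median of 193253 CPM in large tumours (125773 to 252505) and 213705 CPM in small tumours (117961 to 264861), against 86945 CPM in liver tissue (62807 to 132197). Alb, encoding albumin, rose by 1.30 ± 0.12 in large tumours, while Cps1, of the urea cycle, fell by 1.33 ± 0.13 and Asgr1, the asialoglycoprotein receptor, by 0.87 ± 0.09. Kupffer cell markers fell in 8 of 8 cases in both tumour groups, with summed medians of 372 CPM in large tumours (131 to 785) and 608 CPM in small tumours (253 to 893) against 1112 CPM in liver tissue (767 to 1476). Cholangiocyte markers rose in 4 of 8 in each tumour group, a share near that of all genes, with 1065 CPM in large tumours (127 to 6533) and 822 CPM in small tumours (68.8 to 2072) against 146 CPM (83.2 to 567). Stellate cell markers rose in 6 of 8 in each tumour group, with 522 and 379 CPM against 209 CPM. The part of these cell types in the P450 changes was not tested.

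T cell markers rose in 7 of 7 in large tumours and in 0 of 7 in small tumours, at summed medians of 6.91 and 6.13 CPM against 4.76 CPM in liver tissue. Compared directly, large and small tumours differed in 0 of the 7. B cell markers fell in 4 of 4 tested in large tumours and in 3 in small tumours, at 4.09 and 4.05 CPM against 6.84 CPM. Neutrophil markers had 7.05 and 6.53 CPM against 10.2 CPM, with 3 liver tissue libraries and 1 large tumour above 10 CPM of S100a8. Without those libraries 30 members fell and 5 rose in large tumours. Endothelial markers had 302 and 316 CPM against 344 CPM. Of intestinal epithelial markers, Cdx2 and Reg1 had a median of 0 counts over tissue libraries, and the sum was 131 CPM in large and 146 CPM in small tumours against 172 CPM in liver tissue.

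The 15 members not tested were Cyp2b10, Cyp2b19, Cyp2b23, Cyp2c65, Cyp2c66, Cyp2d11, Cyp2d12, Cyp2d34, Cyp2j7, Cyp2j8, Cyp2j11, Cyp2j12, Cyp2j13, Cyp2t4 and Cyp2w1. Their highest value in any tissue library was 1.23 CPM. Cyp2c66, Cyp2t4 and Cyp2j12 had no count in any of the 65 libraries, which allows up to 0.00291 CPM over the summed counts. Cyp2d11 had 408 counts and Cyp2d12 386 counts over all libraries, the most of this group. Cyp2b19 and Cyp2b23 had 18 and 26 counts over the 25 large and 25 small tumours, and 0 over the 15 liver tissue libraries, a smaller group. Such counts cover counting error only and carry no test.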

How the data were processed

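The deposited table holds raw counts of reads per gene, made by the authors for 199 libraries; the 65 whole-tissue libraries are used here and sorted neutrophils and T cells enter no test. Per the submitters' processing notes, FastQC 0.11.8, Trim Galore 0.6.4, HISAT2 2.1.0 and HTSeq 0.11.2 were used with GRCm38; strand setting and annotation release are not given in the sources used here. Per the labels' protocols, tissue was snap frozen and stranded mRNA libraries were read as short pairs. The 5 summary entries that name no gene, 55.9% of tissue entries, were left out. Genes were matched to symbols by Ensembl identifier for 37607 of 37713 genes.

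Groups were taken from the titles and runs from the descriptions. All 65 libraries entered 1 edgeR 4.0.16 quasi-likelihood fit (R 4.3.3, TMM factors, a filter of at least 10 counts and 15 in total, run as a term) with Benjamini-Hochberg adjustment at 0.05 over 14538 genes. A standard error is the fold change divided by the root of its F statistic. DESeq2 1.42.0, RLE factors, no filter, no run term, a replicate block, a 1.5-fold minimum and leaving out each run were alternatives. The replicate block took the place of the run term. Against liver tissue it used replicates 1 to 15 only, which hold no tumour of run 3. Each run alone and leaving out single libraries were added after seeing the data. The fit was tested on simulated data. Intervals and floors cover counting error only, with 3 counts as the floor. Of 705 pairs of libraries within a group none matched within sampling noise.

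Uniqueness was read from 36-base windows of annotated transcripts on GRCm38, and promoters from RefSeq tables. Named genes were members averaging 50 CPM or more in a group, the 8 largest called rises and falls per comparison, members called between tumour sizes, the female-predominant and inducible lists and the leading genes of each pathway list. The members, lists and motifs were chosen with earlier results of these data known. Of the other foreign compound genes, 1 enters the counts and is neither named nor drawn here. Members outside the rule are named to account for all 54.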

Additional observations from a re-analysis of the deposited data

Results flagged for a closer look

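The effect against liver tissue differed between large and small tumours for 5 members by edgeR's quasi-likelihood test, which is the direct comparison of the tumour groups. The difference on the log2 scale, large minus small, was -1.93 for Cyp2b13 (adjusted p = 0.012), -2.28 for Cyp2c69 (adjusted p = 0.032), -1.503 for Cyp2g1 (adjusted p = 0.038), -1.98 for Cyp2c54 (adjusted p = 0.039) and -1.89 for Cyp2c50 (adjusted p = 0.043). All 5 were negative within each run and 0 passed within a run alone. The number of such members was 0 without run 1, with the replicate block and with the 1.5-fold minimum.

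P450 counts were also present in sorted cells, which enter no comparison. By title the neutrophil libraries pool DEN ALIOS mice without further treatment and those given anti-PD1, a CXCR2 inhibitor or both. The summed level of all members had a median of 7.81 CPM in neutrophils from liver (29 libraries, 1.03 to 125 CPM), against 3.40 CPM in neutrophils from blood (32 libraries, 1.06 to 28.6 CPM). In the same libraries Alb had a median of 67.2 CPM in neutrophils from liver, against 0.53 CPM in neutrophils from blood. Cyp2a4 made up 22.9% of member counts in neutrophils from liver. The part of free hepatocyte RNA in these counts was not tested.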

How the results depend on the processing

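The count of members lower in large tumours than in liver tissue stayed between 20 and 32 under every alternative, and that in small tumours fell to 17 within run 3 alone. Members higher numbered 2 in large tumours within run 1 alone and run 3 alone, and in small tumours 3 within run 2 alone and 2 within run 3 alone. Members lower in large than in small tumours, 5 in the reported fit, numbered 8 by DESeq2, 7 without run 3, 10 without large tumour replicate 20, 5 with RLE factors, 3 with no run term, 2 without the libraries over 10 CPM of S100a8, 1 with no filter and without run 2, and 0 without run 1, with the replicate block, with the 1.5-fold minimum and within runs 1, 2 and 3 alone. Among transcription factors, 1 was higher in each tumour group with no run term, without run 2, with the 1.5-fold minimum and within run 1 alone; 12 were lower in large and 9 in small tumours with the 1.5-fold minimum, and 11 and 12 within run 3 alone. Those lower in large than in small tumours, 2 in the reported fit, numbered 1 with no filter, no run term or without run 3, and 0 without run 1 or run 2, with the block, with the 1.5-fold minimum, within each run and without the S100a8 libraries. Of electron and haem genes, 0 were higher in large tumours in 12 settings; 6 were lower in large and 4 in small tumours with the 1.5-fold minimum, and 6 in large tumours within run 3 alone; 0 were lower in large than in small tumours with no run term, without run 1 or run 2, with the block, the 1.5-fold minimum or within a run. Of other foreign compound genes, 1 was higher in large tumours without run 3, with the block, the 1.5-fold minimum, within runs 1 and 2 alone and without the S100a8 libraries. In small tumours 1 was higher under those settings other than leaving out run 3, and also with no filter, without run 1 or run 2 and within run 3 alone. Between tumour sizes 1 was lower by DESeq2 and without run 3, and 2 without replicate 20. Reversed were Bcl6 in large tumours (-0.50) and Cyp1a1 in large tumours (-0.0096), both within run 1 alone. The cause was not tested. Single genes kept direction and side of the threshold in 2103 cases, lost the call in 200 and gained it in 37. Replicate numbers showed little pairing on average: same-numbered libraries had mean correlations of 0.063, -0.006 and 0.070 in the 3 comparisons. Single same-numbered pairs ranged from -0.37 to 0.46, and 7 of 15, 4 of 15 and 10 of 25 were above 0.1. A mean over pairs does not settle whether single pairs share a mouse. With the block 31 members were lower and 4 higher in large tumours, 27 and 5 in small tumours. That fit kept replicates 1 to 15 without a run term. It left out every tumour of run 3 and kept the liver tissue libraries of that run. Single replicates other than large tumour replicate 20 were not left out, each group holding 15 or more. Reads shared by close relatives limit Cyp2a, Cyp2c and Cyp3a levels.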

Other observations

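Liver tissue libraries differed among themselves in Cyp2a5 and Cyp2c69, a pattern noticed after these values were seen and not tested. Cyp2a5 lay between 651 and 1149 CPM in replicates 10 to 15, and between 168 and 344 CPM in replicates 1 to 9. Cyp2c69 lay between 26.7 and 34.9 CPM in replicates 1 to 3, and between 322 and 410 CPM in replicates 4 to 6 of the same run. The labels used here do not say which of these libraries came from the same mouse.

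In sorted T cells Cyp2s1 had a median of 9.38 CPM in blood (37 libraries) and 3.59 CPM in liver (36 libraries), against 0.40 CPM in neutrophils from liver and 1.103 CPM in neutrophils from blood. It made up 53.7% of member counts in T cells from blood. By title the T cell libraries pool DEN ALIOS mice, alone or with anti-PD1, a CXCR2 inhibitor or both. They also include mice titled PBS and mice titled CXCR2 inhibitor without DEN ALIOS. The neutrophil libraries pool the DEN ALIOS treatments.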
